A study of Mus musculus with 3 samples.

Results

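The mitochondrial ribosomal protein genes were taken as all protein-coding genes of the GENCODE M21 annotation on Chromosomes 1 to 19 whose symbol starts with Mrpl or Mrps followed by a digit. The rule found 78 of 20807 protein-coding genes, 49 named for the large subunit (Mrpl) and 29 for the small subunit (Mrps). They lay on 17 of the 19 chromosomes, with 11 on Chromosome 11 and none on Chromosomes 12 and 18.

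CTCF occupancy was measured by ChIP-seq in 1 library of LSK cells, the Lin-, Sca1+, cKit+ cells of the bone marrow of adult male C57BL6 mice. Lin- here means without surface markers of T, B, myeloid and erythroid cells, and LSK is a population that holds hematopoietic stem cells and multipotent progenitors. The library had no treatment, no genotype contrast and no replicate, so the values below have no replicate check and no test between conditions was possible. The LSK input and the MEP input of the study were not analysed here. The list held 18945 peaks, of which 18697 were on Chromosomes 1 to 19, with a median fold enrichment (ChIP over background, as the authors' peak caller gave it) of 10.12. It gives no read counts, so the sequencing depth behind a peak is unknown here, and it holds no expression values, so the LSK identity could not be checked against marker genes.

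The mitochondrial ribosome translates the messenger RNAs of the mitochondrial genome, which encode core subunits of the respiratory chain and of ATP synthase. Its ribosomal RNAs come from mitochondrial DNA, but all of its proteins are encoded in the nucleus and imported, so that genes scattered over the chromosomes supply 1 complex. CTCF is a zinc finger protein that binds DNA at insulators, at boundaries of chromatin domains and at many promoters.

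A CTCF peak overlapped the transcription start site (TSS) of 8 of the 78 genes (10.3%), against 4.43% of all protein-coding genes. The genes were Mrps2, Mrps14, Mrps16, Mrps26, Mrps33, Mrpl11, Mrpl17 and Mrpl34. Within 1 kb of the TSS 11 genes had a peak (14.1%, against 8.92%), within 10 kb 35 genes (44.9%, against 30.4%) and within 50 kb 67 genes (85.9%, against 69.7%). All 4 shares were above the background. The size of the excess depended on the peak list and on the choice of TSS. Within 10 kb it was 14.5 percentage points with all peaks. It was 6.54 with peaks of a −log10 p-value of at least 10 (22 genes). With the 9472 peaks ranked lowest by false discovery rate it was 3.98 (17 genes). When every transcript start was counted, 46.2% of these genes and 39.5% of all protein-coding genes had a peak within 10 kb, a smaller gap. The 35 genes within 10 kb had 34 distinct peaks, and the 67 genes within 50 kb had 66, so the counts do not come from neighbors that share a peak. The median distance from the TSS to the nearest peak edge was 12260 bp for these genes and 22788 bp for all protein-coding genes. The genes just inside and just outside the limits were Mrpl40 at 866 bp and Mrpl53 at 1022 bp, Mrpl19 at 9856 bp and Mrpl44 at 10413 bp, and Mrpl50 at 46350 bp and Mrps9 at 63629 bp.

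**Figure D1:**
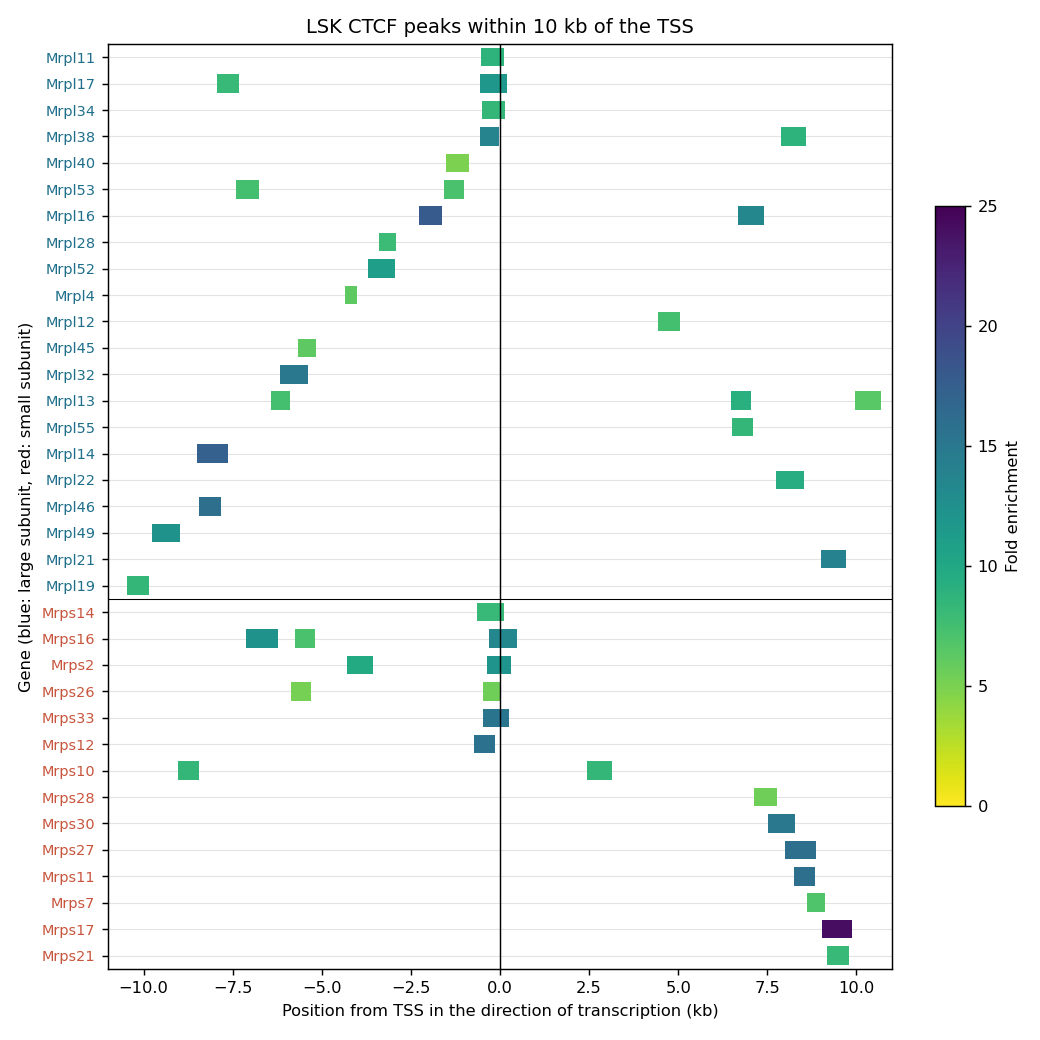
CTCF peaks of LSK cells within 10 kb of the TSS of the 35 mitochondrial ribosomal protein genes that had one, with position from the TSS in the direction of transcription in kb (x axis) and 1 gene per row (y axis, large subunit above the line). Each bar spans 1 peak and its color is the authors' fold enrichment. In 8 rows the nearest peak crosses the TSS. Upstream bars are common in the large subunit rows and also appear in some small subunit rows.

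CTCF peaks were more frequent where genes are dense: over all coding genes, the share with a peak within 50 kb was 53.7% in the class with the fewest coding genes nearby and 82.9% in the class with the most. The mitochondrial ribosomal protein genes had a higher median ratio of observed to expected CpG within 500 bp of the TSS (0.72) than all protein-coding genes (0.57), and were shorter (7899 bp against 17629 bp). They had a median of 3.0 other coding genes starting within 50 kb, against 2.0. When the coding genes were weighted to the same spread over 5 classes of gene density, their shares were 9.39% within 1 kb, 33.5% within 10 kb and 73.6% within 50 kb. Weighted to the same spread of the CpG ratio they were 11.9%, 34.9% and 76.7%. At each distance the share of the mitochondrial ribosomal protein genes was above the weighted share as well, by the least within 1 kb, where the count is smallest. Each property was weighted alone and with all peaks, so the shorter peak lists were not set against a weighted share. The part of expression level was not tested, since the data hold none.

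The large subunit holds the peptidyl transferase center and the exit tunnel, and the small subunit holds the messenger RNA and the decoding center. Of the 49 large subunit genes 3 had a peak over the TSS (6.12%), 5 within 1 kb (10.2%), 21 within 10 kb (42.9%) and 44 within 50 kb (89.8%). Of the 29 small subunit genes 5 had a peak over the TSS (17.2%), 6 within 1 kb (20.7%), 14 within 10 kb (48.3%) and 23 within 50 kb (79.3%). The small subunit was higher up to 10 kb and the large subunit was higher within 50 kb, so no order of the subunits held over the distances. Within 10 kb the large subunit was lower by -5.42 percentage points (large minus small), with a 95% interval from -27.0 to 16.4 (Newcombe) that covers counting error only and includes 0. Not all symbols follow the structure, since the proteins of Mrps18a and Mrps30 sit in the large subunit, and that of Mrps36 belongs to a dehydrogenase complex of the matrix. With these assigned by structure, 22 of 51 large and 13 of 26 small subunit genes had a peak within 10 kb.

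**Figure D2:**
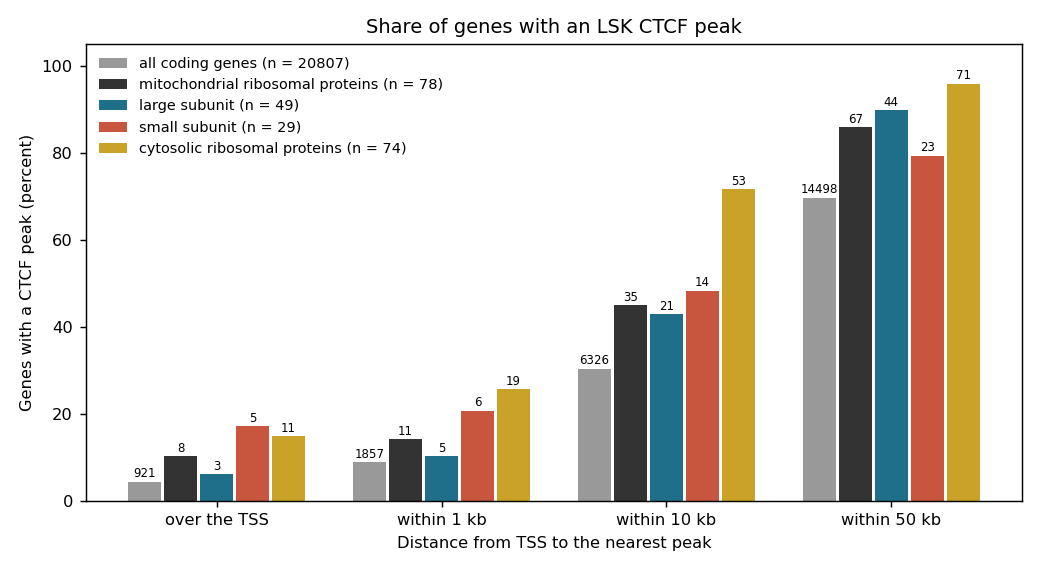
Share of genes with an LSK CTCF peak in percent (y axis) over the TSS and within 1, 10 and 50 kb of it (x axis), for all protein-coding genes, the mitochondrial ribosomal protein genes, their subunits and the cytosolic ribosomal protein genes. The number over each bar is the count of genes with a peak, and within 10 kb the bars stand at 30.4%, 44.9%, 42.9%, 48.3% and 71.6%.

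Some proteins of the mitochondrial ribosome descend from the ribosome of its bacterial ancestor, and others were added in eukaryotes. Of 46 genes whose proteins have a bacterial homologue, 7 had a peak within 1 kb, 22 within 10 kb (47.8%) and 39 within 50 kb. Of 29 genes without one, 4 had a peak within 1 kb, 11 within 10 kb (37.9%) and 26 within 50 kb. The remaining 3 genes, Mrpl55, Mrps28 and Mrps36, were not classed, and 2 of them had a peak within 10 kb. As for the subunits, the order turned between 10 kb and 50 kb (84.8% with and 89.7% without a homologue).

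Among the genes of the small subunit, the most enriched TSS peak was at Mrps33, which has no bacterial homologue. Its fold enrichment was 15.34, above 84.7% of the peaks on Chromosomes 1 to 19, and its −log10 p-value 25.499, at chr6:39810730-39811457. Mrps16, a homologue of the bacterial S16 protein, had a TSS peak of 13.38 at chr14:20393168-20393936, and 2 further peaks within 10 kb. Mrps2, the homologue of the bacterial S2 protein, had a TSS peak of 12.07 at chr2:28467690-28468384 and 8 peaks within 50 kb, a number that only 2 other genes of the family had. The TSS peaks of Mrps14 (8.16) and Mrps26 (5.55) were weaker, and that of Mrps26 was above only 2.76% of the peaks. It reached the TSS by its last bases, ending at 130563745 where the gene starts at 130563742 on Chromosome 2.

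Of the large subunit genes, Mrpl17 had the strongest peak over the TSS. It encodes a protein at the polypeptide exit tunnel. Its fold enrichment was 11.75, at chr7:105810902-105811654. Mrpl11, a protein of the stalk base where translation factors dock, had a TSS peak of 8.81 at chr19:4961619-4962263, and Mrpl34 one of 8.48 at chr8:71464467-71465102. The peak at Mrpl38, a central protuberance protein, ended 19 bp upstream of the TSS with a fold enrichment of 13.70 (chr11:116138887-116139440). All 3 TSS peaks of the large subunit were below 12.07, while 3 of the 5 of the small subunit were at or above it. These are 8 peaks in 1 library, and the difference was not tested.

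The sequences under these peaks show where the known CTCF core motif was present. A 12-base form of the motif was searched on both strands without a mismatch. Only Mrpl11 and Mrpl17 of the 11 genes with a peak within 1 kb had it (18.2%, against 30.0% of the peaks nearest to a coding TSS within 1 kb). Both motifs were upstream of the TSS, 133 bp from it at Mrpl11 and 163 bp at Mrpl17, and on the strand of the gene. They are shown 5′ to 3′ on the strand of the motif with 14 bases on either side and the motif in capitals, from chr19:4961995-4962034 (plus strand) and chr7:105811243-105811282 (minus strand) of mm10.
Mrpl11: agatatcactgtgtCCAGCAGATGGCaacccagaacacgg
Mrpl17: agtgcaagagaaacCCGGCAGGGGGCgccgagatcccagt

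At Mrpl17 the match falls in the promoter that RefSeq gives on GRCm38.p6 (250 bases before to 50 after the start, chr7:105811038-105811337, minus strand), which is shown whole because it was the only one with the motif among the promoters searched. Promoters of 69 of the 78 genes were matched by symbol, and 1 of them (1.45%) held the motif, against 1.64% of 25748 genes. RefSeq starts Mrpl11 further downstream than GENCODE, so its window, which begins at 4962056 on Chromosome 19, leaves out the motif that ends at 4962020. The RefSeq start also lies past the end of the Mrpl11 peak (4962263), so this peak was over the TSS by GENCODE only.
Mrpl17 promoter: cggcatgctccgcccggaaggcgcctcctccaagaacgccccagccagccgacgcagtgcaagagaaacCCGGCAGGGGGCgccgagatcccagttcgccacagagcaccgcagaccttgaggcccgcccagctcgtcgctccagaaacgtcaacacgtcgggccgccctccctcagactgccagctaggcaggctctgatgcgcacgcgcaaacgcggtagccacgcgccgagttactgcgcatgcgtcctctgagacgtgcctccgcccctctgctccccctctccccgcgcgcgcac

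Another 7 of the 11 peaks within 1 kb held the motif with 1 mismatch, so that only the peaks of Mrps12 and Mrpl40 had neither. The match nearest to the peak middle is shown for the 4 most enriched of these peaks, again on the strand of the motif with the matched 12 bases in capitals. The position that departs from the motif, counted from 1 at its 5′ end, was 11 at Mrps33 (chr6:39811009-39811048, minus strand), 9 at Mrpl38 (chr11:116139029-116139068, plus strand), 6 at Mrps16 (chr14:20393554-20393593, minus strand) and 10 at Mrps2 (chr2:28468033-28468072, minus strand). At Mrps33 and Mrps2 the match was centered 40 bp and 14 bp upstream of the TSS.
Mrps33: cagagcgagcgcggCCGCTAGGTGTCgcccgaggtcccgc
Mrpl38: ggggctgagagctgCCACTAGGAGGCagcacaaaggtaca
Mrps16: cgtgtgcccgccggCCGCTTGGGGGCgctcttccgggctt
Mrps2: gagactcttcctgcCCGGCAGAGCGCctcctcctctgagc
With 1 mismatch allowed the motif is common, as 17.7% of windows of the same width 10 kb past each peak held such a match, against 1.26% for a match without a mismatch.

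Over all 34 peaks within 10 kb, 8 held the motif without a mismatch (23.5%, 95% Wilson interval 12.4% to 40.0%). The share was 35.7% of all peaks on Chromosomes 1 to 19 and 32.3% of the peaks nearest to any coding TSS within 10 kb, and both lie inside the interval, which covers counting error only. The difference was not tested. All 8 peaks had a match in the central 200 bp. With 1 mismatch the shares were 82.4% of the 34 peaks and 83.6% of all peaks. The 8 peaks held 9 matches, 7 on the strand of the gene and 2 on the opposite strand. Beside Mrpl11 and Mrpl17, the genes were Mrpl53, Mrpl28, Mrpl49, Mrpl19, Mrps10 and Mrps17. The matches of the 2 most enriched of these peaks are shown, at Mrps17 (chr5:129724949-129724988, minus strand) and, for the 2 matches at Mrpl49, chr19:6067004-6067043 and chr19:6067134-6067173 (both minus strand).
Mrps17: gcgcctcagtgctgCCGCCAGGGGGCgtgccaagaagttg
Mrpl49 first match: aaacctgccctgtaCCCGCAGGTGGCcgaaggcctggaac
Mrpl49 second match: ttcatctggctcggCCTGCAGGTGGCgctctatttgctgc

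The peak with the highest fold enrichment within 10 kb of any gene of the family was this Mrps17 peak, at 24.15 and a −log10 p-value of 56.83, above 99.0% of the peaks on Chromosomes 1 to 19. Mrps17 is a homologue of the bacterial S17 protein. The peak was 9025 bp from its TSS, past the 3′ end of the gene, and covered the TSS of Nipsnap2, which encodes a mitochondrial protein. Of the other small subunit genes with their nearest peak between 1 and 10 kb, Mrps27, a pentatricopeptide repeat protein, and Mrps11 followed, both with a peak of 15.99 inside the gene, 7983 bp and 8239 bp from the TSS. Mrps30 had a peak of 15.01 in its own exon at 7515 bp. The next ones beyond 1 kb, Mrps10 (8.48) and Mrps21 (8.16), were below the median of all peaks. When every transcript start was counted, Mrps10 had a peak over a start and Mrps21 had one at 958 bp. Repeats made up 55.4% of the Mrps21 peak and 94.6% of the peak 4003 bp upstream of Mrpl4 (fold enrichment 6.20), the 2 of the 34 peaks that were mostly repeat. The authors' mapping kept reads with several placements, and their part in these peaks was not tested.

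In the large subunit the most enriched peak beyond 1 kb and within 10 kb was 1638 bp upstream of Mrpl16, a protein next to the peptidyl transferase center, at 17.89 (chr19:11768124-11768753). It held no match to the motif even with 1 mismatch. Mrpl14 followed at 17.29, 7633 bp upstream in an intron of Tmem63b, and Mrpl14 also had 8 peaks within 50 kb. Mrpl46, a central protuberance protein, had a peak of 15.99 at 7827 bp, Mrpl32 one of 15.01 at 5391 bp in an intron of the proteasome gene Psma2, Mrpl21 one of 14.03 at 8994 bp inside the gene, and Mrpl49 one of 12.40 at 8978 bp. The median fold enrichment of the peaks within 10 kb was 8.81 over the 21 large subunit genes and 12.73 over the 14 small subunit genes, with ranges of 4.89 to 17.89 and 5.55 to 24.15 that overlap widely. Over the 34 distinct peaks the median was 9.14, against 10.44 for the peaks nearest to any coding TSS within 10 kb, and 16 were above the median of all peaks. The order was not the same at the other distances: the median was 11.75 against 10.44 within 1 kb, and over genes it was 11.42 against 10.44 within 50 kb.

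**Figure D3:**
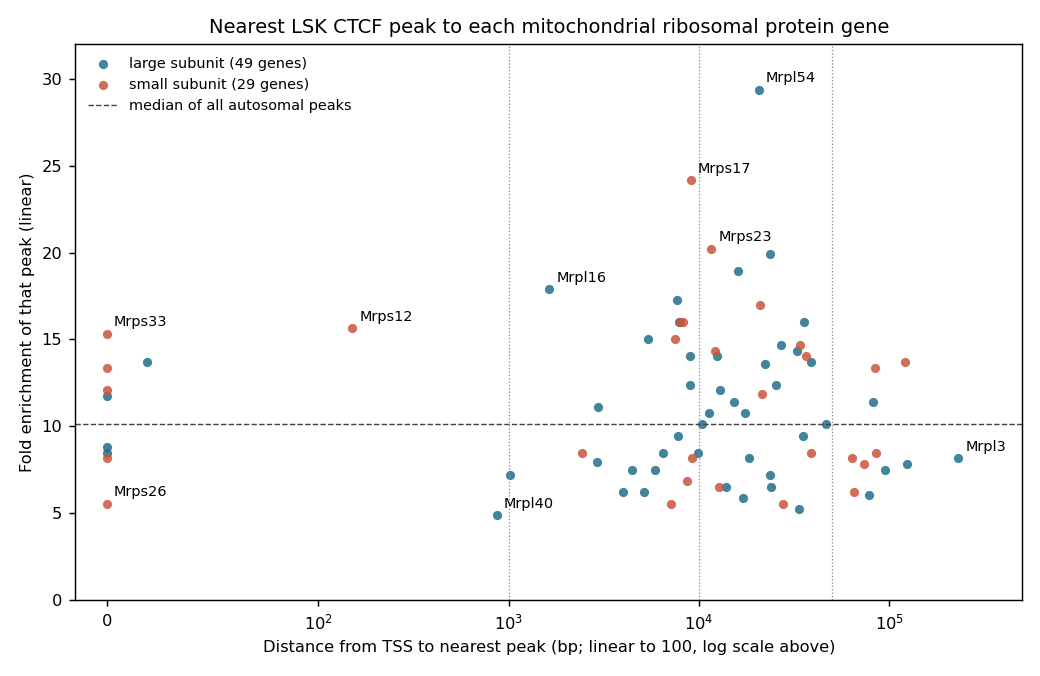
Distance from the TSS to the nearest LSK CTCF peak in bp (x axis, linear to 100 bp and logarithmic above, with dotted lines at 1, 10 and 50 kb) and the authors' fold enrichment of that peak (y axis, linear) for the 78 genes, 1 point each, with the median of all peaks on Chromosomes 1 to 19 as a dashed line at 10.12. Points lie on both sides of that line at every distance, from 4.89 at Mrpl40 to 29.37 at Mrpl54.

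The side of the TSS on which the nearest peak lay was counted in each subunit. Of the 21 large subunit genes with a peak within 10 kb, it was upstream of the TSS in 14, over it in 3, inside the gene in 3 and past the 3′ end in 1. The peaks of Mrpl12 and Mrpl22 counted as inside the gene by their nearest edge, but their midpoints were intergenic. Of the 14 small subunit genes the nearest peak was upstream in 1 only (Mrps12), over the TSS in 5, inside the gene in 5 and past the 3′ end in 3. In all coding genes with a peak within 10 kb, 48.5% had it upstream, 14.6% over the TSS, 28.5% inside the gene and 8.38% past the 3′ end. By the nearest peak alone, the large subunit was thus above the background for the upstream side (66.7%) and the small subunit below it (7.14%). Some genes counted under another side also had an upstream peak within 10 kb. They were Mrps2 (3565 bp), Mrps16 (5181 bp), Mrps26 (5306 bp) and Mrps10 (8455 bp) of the small subunit and Mrpl17 (7316 bp) of the large. The contrast between the subunits was noticed after the values were seen and was not tested. By their midpoints, 15 of the 34 peaks were intergenic, 12 intronic and 7 exonic. In 23 of the 35 genes the TSS was closer to the peak than any other coding TSS, and in 12 another coding gene started as close or closer.

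Many of these genes begin next to a gene on the other strand. Another coding gene started on the opposite strand within 1 kb at 33 of the 78 genes (42.3%), against 11.2% of all protein-coding genes. A start on either side counted, so a partner can also overlap the gene. Mrpl43 and Twnk, Mrpl36 and Ndufs6, and Mrpl46 and Mrps11 overlap in this way. Overlapping pairs and pairs that point away from each other were not counted apart. Several of the partners work in the same organelle. The ones named here were picked, and the share of such genes among all partners was not counted. Mrps12, the homologue of the bacterial S12 protein of the decoding center, started 172 bp from Sars2, the mitochondrial seryl-tRNA synthetase. Mrpl43 started 779 bp from Twnk, the helicase of mitochondrial DNA, Mrpl36 29 bp from Ndufs6 and Mrpl47 615 bp from Ndufb5, both of them subunits of respiratory complex I. Mrpl49 started 59 bp from Fau, which encodes a protein of the cytosolic ribosome, and Mrpl46 and Mrps11 started 412 bp apart.

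None of the 33 genes with such a partner had a peak over the TSS, whereas 8 of the 45 genes without one did (17.8%). Within 1 kb the counts were 2 of 33 (6.06%) and 9 of 45, within 10 kb 12 of 33 (36.4%) and 23 of 45 (51.1%), and within 50 kb 30 of 33 and 37 of 45. Over all coding genes a partner made little difference near the TSS, with a peak over it in 4.74% of genes with a partner and 4.39% of genes without. The direction in this family up to 10 kb was opposite to that of coding genes at large, where 32.5% of genes with a partner and 30.1% without had a peak within 10 kb. The counts in the family are small, and the difference was not tested.

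Both peaks within 1 kb of a gene with a partner were on the side of that partner. The Mrps12 peak (chr7:28741971-28742554) had a −log10 p-value of 26.445 and a fold enrichment of 15.66, the highest enrichment within 1 kb of any gene of the family. It began 151 bp upstream of the Mrps12 TSS, covered the Sars2 TSS and had its midpoint in an exon of Sars2. The Mrpl40 peak (chr16:18877728-18878380) had the lowest fold enrichment among the nearest peaks of all 78 genes, at 4.89 and above 0.784% of the peaks. By −log10 p-value (7.308) the Mrpl40 peak was not the lowest. It lay 866 bp upstream of Mrpl40 and 691 bp from the TSS of Hira, a histone chaperone gene, in a Hira intron. The Mrps12 and Mrpl40 genes were 172 bp and 175 bp from their partners, so the highest and the lowest enrichment within 1 kb came with similar spacing.

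Mrpl46 and Mrps11 were the only pair of the family that shared a nearest peak within 50 kb. It was the peak of 15.99 at chr7:78791358-78791968, in an intron of Mrps11 and upstream of Mrpl46. No peak lay over either start or between them. Sharing also occurred with genes outside the family, since Mrpl49 and Fau had the same peak of 12.40, and Mrpl43 and Twnk the same peak of 7.18 at more than 10 kb.

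At the far end, 11 genes had no peak within 50 kb, 5 of the large and 6 of the small subunit. One of these genes, Mrps9, had a peak 11805 bp from another of its annotated starts. The longest distances in the large subunit were 229344 bp at Mrpl3, 124292 bp at Mrpl1 and 95114 bp at Mrpl30. In the small subunit they were 121395 bp at Mrps6, 84864 bp at Mrps25 and 84157 bp at Mrps36. Mrpl3, Mrpl1, Mrpl30 and Mrps6 encode homologues of bacterial ribosomal proteins. Genes with a homologue also had the lower share with a peak within 50 kb (84.8% against 89.7%). The genes without a peak within 50 kb had a median of 1.0 other coding genes starting within 50 kb and a median length of 14509 bp, against 3.0 and 6956 bp for those with a peak within 10 kb. Their median CpG ratio (0.72) was close to that of the latter (0.75). Another 32 genes had their nearest peak between 10 and 50 kb. Of these, 23 were of the large subunit, with fold enrichments from 5.22 to 29.37, and 9 of the small subunit, from 5.55 to 20.23.

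The nuclear genes that act with the mitochondrial ribosome were described in the same way. Of 5 subunit proteins with other symbols, 2 had a peak within 10 kb, Aurkaip1 over its TSS (9.79) and Gadd45gip1 (12.4). Of 23 genes for assembly factors and for the modification of ribosomal RNA, 7 had one (30.4%), a share equal to the background. The most enriched were at Mpv17l2 (17.29), which takes part in assembly, Mtg1 (12.73), a GTPase of the large subunit, and the ribosomal RNA methyltransferases Mrm1 and Mrm2 (both 9.14, both over the TSS). Of 15 translation factor genes 8 had a peak within 10 kb (53.3%), with Tsfm (11.75, over the TSS), an elongation factor, Mtrf1l (10.12), a release factor, and Gfm2 (9.14), a recycling factor, at the top. Of 17 mitochondrial aminoacyl-tRNA synthetase genes 5 had one (29.4%), the strongest at Sars2 (15.66, the peak described at Mrps12), Aars2 (11.75, over the TSS) and Hars2 (11.42). Of 11 genes for the transcription and maintenance of mitochondrial DNA 6 had one (54.5%), with the transcription terminator genes Mterf1a (15.34) and Mterf1b (13.05) both over the TSS and Polg2 (15.01), the accessory subunit of the mitochondrial DNA polymerase. The authors' mapping kept reads with several placements, and their part in the Mterf1a and Mterf1b peaks was not tested. The mitochondrial ribosomal protein genes were between these lists at 10 kb, and lists of 5 to 23 genes are too short to be ordered.

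**Figure D4:**
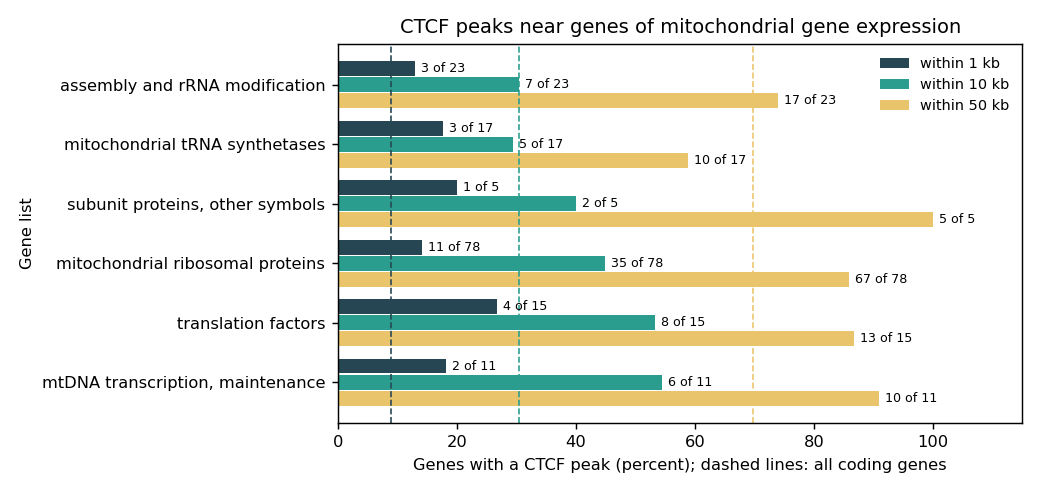
Share of genes with an LSK CTCF peak within 1, 10 and 50 kb of the TSS in percent (x axis) for 6 lists of genes of mitochondrial gene expression (y axis), with the count beside each bar and the shares of all protein-coding genes as dashed lines at 8.92%, 30.4% and 69.7%. Within 10 kb the assembly factors (7 of 23) and the tRNA synthetases (5 of 17) stand at the dashed line, and the ribosomal proteins (35 of 78) to the right of it.

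The proteins of the cytosolic ribosome, which translates the products of nuclear genes, were the closest comparison by function. Of their 74 genes 11 had a peak over the TSS (14.9%), 19 within 1 kb (25.7%), 53 within 10 kb (71.6%) and 71 within 50 kb (95.9%). Each share was above that of the mitochondrial ribosomal protein genes, and the median distance was 5546 bp against 12260 bp. The cytosolic genes were also shorter (median 3266 bp), had a higher median CpG ratio (0.81) and had an opposite-strand partner at 21.6% of their starts. Their peaks within 10 kb had a median fold enrichment of 11.75 over genes, where the mitochondrial ribosomal protein genes had 9.46. What part these properties have in the difference was not tested.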

How the data were processed

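CTCF ChIP-seq of 1 LSK library was analysed from the peak list that the authors deposited. The paper's methods name Bowtie, Samtools and MACS, with multiply mapping reads allowed and reads on ChrM and unplaced chromosomes removed. The submitters' processing notes name bcl2fastq, Bowtie 1.0.0 and mm10. Neither the settings of MACS nor the control it used is given in the sources used here. This list has no header. The coordinates, the fold enrichment (a linear ratio) and the −log10 p-value are used as deposited. The deposited false discovery rate, a q-value, was used only to rank peaks, since its scale (fraction or percent) is not stated.

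Starts of peaks were moved to count from 1. The chromosome lengths of the reference (GRCm38.p6, the mm10 assembly) were checked against the peaks, and gene records came from GENCODE M21. The TSS was the 5′ end of the gene record, and distance ran to the nearest peak edge (0 if the peak covers it). A peak was called inside a gene if its edge nearest the TSS lay there. The CTCF core motif was searched on both strands over the whole peak. Intervals (95%, Wilson or Newcombe) cover counting error only. In place of random genes, all coding genes were weighted over 5 classes of gene density or CpG ratio. No test across genes was run, as genes are not replicates.

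The members and gene lists were chosen with earlier results of these data known. Genes were named by rule: all with a peak within 1 kb, in each subunit the 6 further genes with the highest fold enrichment within 10 kb and the 3 with the longest distance, pairs sharing a peak within 50 kb, and up to 3 genes by fold enrichment in each related list. Genes beside a limit, with a motif, with a named partner, or with a strong peak beyond 10 kb were named after their values were seen. The alternatives were a −log10 p-value of at least 10, the 9472 peaks of lowest false discovery rate, peak midpoints, every transcript start, other backgrounds, subunits by structure, and other motif windows. Steps were tested on simulated data. Python 3.11.15, numpy 2.4.6, scipy 1.17.1, pandas 2.3.3, pysam 0.24.0 and matplotlib 3.10.9 were used.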

Additional observations from a re-analysis of the deposited data

How the results depend on the processing

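With only peaks of a −log10 p-value of at least 10, the count fell to 7 genes within 1 kb and 22 within 10 kb, and to 6 and 17 with the 9472 peaks that had the lowest false discovery rates. The background fell too, to 21.7% and 17.8% within 10 kb, so the excess over all coding genes within 10 kb shrank from 14.5 percentage points to 6.54 and 3.98. With coding genes weighted by gene density it was 11.4. The difference between the subunits (large minus small) reversed to 10.5 percentage points within 50 kb. The share of peaks with the motif moved from 23.5% to 82.4% with 1 mismatch. The excess kept its sign in each of its 5 alternatives, with 3.98 the lowest. Of the other values, 14 stayed within 1.5 times of the count, kept the sign of the subunit difference or moved by less than the counting interval. With every transcript start, 17.9% of the family and 13.6% of coding genes had a peak within 1 kb. Within 10 kb these shares were 46.2% and 39.5%, a smaller gap than in the main setting. This setting was not among the 5 alternatives of the excess. No paired analysis was possible because the only library with peaks has no partner sample and no test was run, and no replicate could be left out. Peaks carry no read counts, so weak sites cannot be told from sites missed at this depth.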

Other observations

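The most enriched nearest peak of any gene of the family was not within 10 kb of a TSS. It was 20566 bp upstream of Mrpl54, in an intron of the tight junction gene Tjp3, with a fold enrichment of 29.37, above 99.8% of the peaks on Chromosomes 1 to 19. Mrpl54 was also 1 of 3 genes of the family with 8 peaks within 50 kb, where the median was 2.0 for the family and 1.0 for all coding genes. Mrps23 had its nearest peak 11571 bp away, past the 3′ end, at 20.23, and Mrpl27 at 23683 bp, over the TSS of Lrrc59, at 19.90. These were picked after their values were seen and have no test.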
